A study of Mus musculus with 17 samples.

Results

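The proteasome is described here across mouse preimplantation development from every probe set whose single gene symbol starts with Psma, Psmb, Psmc, Psmd or Psme. This gave 53 probe sets for 42 genes, of 12488 probe sets on the array and 8252 genes with a probe set of their own. The core had 19 probe sets for 14 genes (Psma and Psmb), and the cap had 25 for 20 genes (Psmc and Psmd). The immune and activator subunits, Psmb8 to Psmb10 and Psme, had 7 probe sets for 6 genes. The remaining 2 probe sets match by name alone. Psmc3ip encodes a factor of meiotic recombination and Psme3ip1 a protein that binds Psme3, and neither is a subunit. Another 2 probe sets carried several symbols, among them a proteasome gene, and were left out.

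The 26S proteasome is the protease that removes proteins tagged with ubiquitin. Its core is a barrel of stacked rings, the outer ones built of alpha subunits (Psma) and the inner ones of beta subunits (Psmb), and Psmb5, Psmb6 and Psmb7 carry the active sites that face the inside. The cap sits on the end of the barrel. Its base holds the Psmc ATPases, which unfold the substrate and push it inward, and its lid holds Psmd14, the enzyme that takes the ubiquitin chain off. Psmb8, Psmb9 and Psmb10 are interferon-induced replacements for the constitutive catalytic subunits, and the Psme proteins are activators that bind the barrel in place of the cap. At fertilization the embryo starts from RNA and protein stored in the oocyte, many maternal proteins are degraded through ubiquitin and the proteasome, and transcription from the embryo's own genome becomes broad at the 2-cell stage in the mouse.

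RNA was measured on 17 single-colour Affymetrix MG-U74Av2 arrays: oocytes had 4 arrays, 1-cell embryos 3, 2-cell embryos 3, 8-cell embryos 4 and blastocysts 3. The labels give the stage and state that the RNA of each sample was amplified by in vitro transcription over 2 rounds. They give no strain, genotype, treatment, age or time after fertilization, and nothing in them tells whether the samples sharing a stage name were separate animals, pools or repeat preparations. The p-values therefore reflect the spread among these arrays, part or all of which may be technical, and precision is limited by their number. In whole oocytes and embryos, fewer cells of a type and less RNA per cell cannot be told apart, and each array was scaled to the same overall brightness, so a change here is a change relative to the other transcripts on the array.

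The arrays were first checked against their labels. Arrays of a stage correlated at 0.935 to 0.979 on log2(signal + 11) over the 8067 probe sets that passed the filter described below. Those of different stages correlated at 0.891 at most, and no pair was identical. The landmark genes followed the stage names: Zp3, a protein of the egg coat, had 7194 ± 306 in oocytes and 33.2 ± 1.53 in blastocysts (mean signal ± SD), Tcstv3 had 1372 ± 429 in 2-cell embryos, and Krt18, a keratin of trophectoderm, had 3279 ± 594 in blastocysts. Cdx2, a defining factor of trophectoderm, was near background throughout, with 8.07 ± 6.38 in blastocysts. Of the markers of other cells, the summed signal of 10 oviduct and uterus genes was 656 to 785 in oocytes, 859 to 968.5 in 1-cell embryos, 1563 to 2267 in 2-cell embryos, 512.5 to 7622 in 8-cell embryos and 334 to 580.2 in blastocysts. Ovgp1, the oviduct glycoprotein, was at 6212 on the second 8-cell array, 43.1 to 114 on the other 8-cell arrays, 688 to 1272 in 2-cell embryos and 22.5 to 56.4 elsewhere. The summed signals of cumulus and granulosa (11 genes), sperm (6 genes) and blood markers (6 genes) stayed within 129.5 to 384, 163 to 436 and 93.0 to 379.

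Control probe sets moved between stages as well. The 18S ribosomal RNA probe sets changed by 4.41 to 5.74 on the log2 scale from oocyte to 1-cell embryo and by -4.23 to -2.42 from there to the 2-cell embryo. The hybridisation spikes, control RNAs that are not from the mouse, changed by 1.14, -0.23, 0.65 and -1.19 over the 4 consecutive steps. The log2 ratio of the 3′ to the 5′ probe set was 1.14 to 2.11 for Actb and 1.14 to 2.71 for Gapdh over the stages. The part of these controls and of the oviduct markers in the results below was not tested, apart from the counts given with the arrays rescaled to the spikes or with an array left out.

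Each probe set was tested on log2(signal + 11) in one linear model over the 17 arrays (limma, with p-values adjusted by Benjamini and Hochberg over all 8067 probe sets that passed the filter on dim signals), and it was called at an adjusted p below 0.05. To pass, a probe set needed 3 or more arrays with a signal over 41.1, which is the median of the whole table. It was passed by 16 of 19 core, 22 of 25 cap and 4 of 7 immune and activator probe sets and by both probe sets that match by name alone. The dim ones were Psmc4, Psmd2, Psmb8, Psmb9 and further probe sets of Psmb1, Psmb4 (2 of them), Psmc5 and Psme1. Of the 51 subunit probe sets, 13 carry a name mark for shared or dropped probes. Among these are the only probe sets of Psma3, Psmb7, Psmd9 and Psmd12 and the brightest of Psmb4 and Psmb5. All fold changes are on the log2(signal + 11) scale, which understates the change of dim genes, and a change is given as log2 ± its standard error. Levels of different probe sets were not compared. Against a stage whose signals lie under the filter level, the size of a change depends on the offset of 11 and is not exact, and a probe set that passed only through its bright stages had to differ between stages.

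All 44 tested members differed between stages by limma's moderated F test, as did 84.7% of all probe sets tested. In 34 of the 38 tested core and cap probe sets the lowest stage mean was that of the 1-cell (19) or the 2-cell embryo (15). Over all tested probe sets these stages held the lowest mean in 24.0% and 11.8%. The highest mean was that of the blastocyst in 21 of the 38 (55.3%), against 21.1% of all. It was that of the oocyte in 6 (15.8%), the same share as over all tested (15.8%). Of the 16 tested core probe sets, 0 had the lowest mean in the oocyte or the 8-cell embryo, against 17.4% and 19.2% of all.

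**Figure D1:**
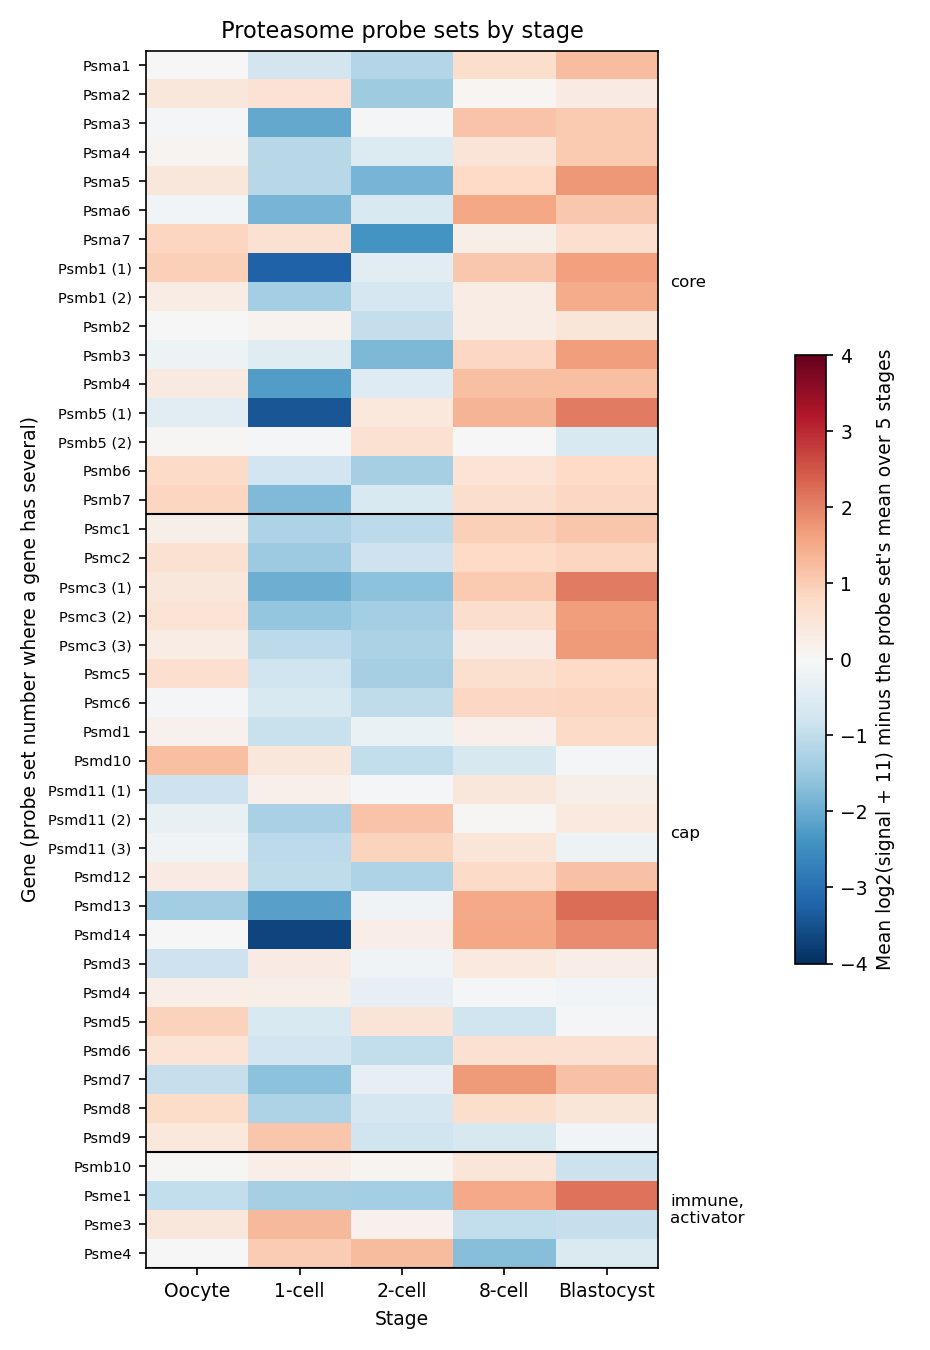
Colour gives the mean log2(signal + 11) of a stage minus the mean of the probe set over the 5 stages, for the 42 tested subunit probe sets (rows, by class; probe sets of a gene are numbered) and the stages (columns). Most core and cap rows are blue at the 1-cell and 2-cell stages and red in 8-cell embryos and blastocysts, and the 4 immune and activator rows have no common pattern.

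The promoters of the subunit genes were searched for 2 motifs known from stress-responsive and housekeeping genes. RefSeq promoters (GRCm38.p6, 250 bases before to 50 after the start of the gene) matched 34 of the 40 subunit genes. The core of the antioxidant response element, TGACNNNGC on either strand, was in 6 of the 34 (17.6%) and in 14.0% of the promoters of all 27025 genes. CCAAT, on either strand, was in 13 of the 34 (38.2%) and in 41.1% of all. Among the classes, CCAAT was in 6 of 11 core promoters and 5 of 17 cap promoters. Matches of the 2 motifs can share an end base. Both shares were thus near those of all genes. The stretches with TGACNNNGC before the start of a core or cap gene are shown so that each match can be read in its surroundings. Capitals mark the match, read 5′ to 3′ on the strand of the gene.
Psmd9: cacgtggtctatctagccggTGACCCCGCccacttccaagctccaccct
Psmb6: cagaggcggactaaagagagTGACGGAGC
Psmd12: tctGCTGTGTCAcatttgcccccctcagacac
Psmc6: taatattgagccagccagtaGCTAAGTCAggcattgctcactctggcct
Psmb5: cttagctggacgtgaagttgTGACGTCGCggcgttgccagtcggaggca
They lie at chr5:123228139-123228187 on the plus strand for Psmd9, chr11:70525328-70525356 (plus) for Psmb6, chr11:107479278-107479309 (plus) for Psmd12, chr14:45329577-45329625 (plus) for Psmc6 and chr14:54618014-54618062 (minus) for Psmb5, with the first base of the match at -31, -9, -247, -227 and -47 from the start. The sixth match, in Psme4, runs across the start of the gene. Of these genes, Psmb5, Psmb6, Psmd12 and Psmc6 fell from oocyte to 1-cell embryo, while Psmd9 and Psme4 rose with the deposited scaling (1 of the Psmb5 probe sets was not called). A match is a run of letters in this window, not a measured binding site.

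At the step from oocyte to 1-cell embryo, the samples are named oocyte without a maturity, so changes before and after fertilization cannot be told apart. Most subunits were lower in 1-cell embryos. In the core 11 probe sets fell, 0 rose and 5 were not called, and in the cap 18 fell, 3 rose and 1 was not called. The cap falls include Psmd13, whose oocyte and 1-cell signals were nearly all under the filter level, so its call is not support for a fall. The immune and activator class differed in direction, with 2 rising, 0 falling and 2 not called. Of all probe sets tested, 37.1% were called, 17.3% higher and 19.8% lower. Without oocyte array 4 the 18 cap falls became 14, and without oocyte array 1 or 1-cell array 1 or 2 they became 15. The median change was -1.20 over all 19 core, -0.99 over all 25 cap and 0.20 over all 7 immune and activator probe sets, and 0.04 over all tested. With the arrays rescaled to the spikes, a shift of -0.89 in the median of all probe sets, 38 members fell and 0 rose, where the deposited scaling gave 31 and 5. Of all 8067 probe sets tested, 4638 fell and 30 rose with spike scaling.

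By role, 5 of 7 tested alpha-ring, 6 of 9 beta-ring and 7 of 7 ATPase probe sets fell. Psmc3 gave 3 of these 7 ATPase probe sets, and Psmc4 was too dim to be tested. The largest fall was that of Psmb1, a structural beta subunit. Its signal was 585, 889, 585 and 679 in oocytes, 24.0, 27.0 and 28.7 in 1-cell embryos, 227, 238 and 283 in 2-cell embryos, 1127, 937, 745 and 392 in 8-cell embryos, and 1425, 1294 and 724 in blastocysts. The 1-cell arrays lay far below every other array, and no stage overlapped with them. They were also under the filter level. The change from oocyte to 1-cell embryo was -4.19 ± 0.27 (adjusted p = 1.29e-10), and a second Psmb1 probe set changed by -1.65 ± 0.17 (adjusted p = 8.23e-08).

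Psmd14, the deubiquitinating enzyme of the lid, had the largest fall in the cap. It was at 429, 561, 535 and 596 in oocytes, 20.4, 31.1 and 49.8 in 1-cell embryos, 457, 679 and 866 in 2-cell embryos, 1258, 1465, 1724 and 2016 in 8-cell embryos, and 2056, 1655 and 2340 in blastocysts. All 3 values in 1-cell embryos were far below those of every other stage, and oocyte and 2-cell values overlapped. The fall was -3.64 ± 0.23 (adjusted p = 7.46e-11), with most 1-cell signals under the filter level.

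Psmc3, an ATPase of the base, is measured by 3 probe sets, which ran in parallel. All 3 carry a name mark for shared or dropped probes, so they may not be independent measurements. The first gave 291, 371, 352 and 374 in oocytes, 36.9, 71.4 and 64.1 in 1-cell embryos, 61.9, 61.9 and 99.3 in 2-cell embryos, 512, 458, 505 and 646 in 8-cell embryos, and 999.5, 810.5 and 1607 in blastocysts. The 1-cell and 2-cell values overlapped, and both stages lay below oocytes, which in turn lay below 8-cell embryos and blastocysts. The 3 probe sets fell by 2.42, 2.09 and 1.35 on the log2 scale at the 1-cell stage (SE 0.23, 0.24 and 0.20).

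Among the cap subunits that rose was Psmd3, a lid subunit, with 203, 126, 243 and 229 in oocytes, 354, 483 and 505 in 1-cell embryos, 209, 327 and 462 in 2-cell embryos, 428, 429, 527 and 472 in 8-cell embryos, and 406, 444 and 418 in blastocysts. All 1-cell values were above all oocyte values, while 2-cell embryos overlapped with oocytes, 1-cell and 8-cell embryos. The rise was 1.14 ± 0.23 (adjusted p = 0.000388). The other cap probe sets that rose were Psmd9, an assembly chaperone, at 0.69 ± 0.22 (adjusted p = 0.016), and 1 of 3 for Psmd11. The call of Psmd9 was lost without oocyte array 2 (0.49, adjusted p = 0.0686), 1-cell array 1 (0.63, adjusted p = 0.0643) or 1-cell array 3 (0.59, adjusted p = 0.0729), and Psmd9, Psmd3 and that Psmd11 probe set did not rise with spike scaling.

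From 1-cell to 2-cell embryo, when broad transcription of the embryo's genome begins, the core split. In the core 8 probe sets rose, 7 fell and 1 was not called. The cap had 9 rising, 5 falling and 8 not called, and the immune and activator class 0 rising, 1 falling and 3 not called. Of all tested, 47.2% were called, 26.0% higher and 21.2% lower. Without 2-cell array 2 the 5 falling cap probe sets became 3, with Psmc5 and Psmc6 no longer called. The 7 falling core probe sets became 5 without 1-cell array 2 or 3 or 2-cell array 2. There Psma1 (-0.43, -0.44 and -0.32) and Psmb6 lost their calls. Without 1-cell array 2 the 8 core rises became 7. The medians were 0.03, 0.19 and 0.04 over all members of the 3 classes and 0.06 over all tested. For all members the split was 18 higher and 13 lower with the deposited scaling, 13 and 16 with median centring, which moved the median of all probe sets to -0.22, and 14 and 6 with spike scaling, which moved it to 0.23. Over all 8067 tested it was 1614 higher and 2435 lower with median centring, and 1911 and 887 with spike scaling. The core had 7 higher and 3 lower with spike scaling, and the cap 6 and 2.

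The split shows in the spread between genes. With 1 probe set per gene, the SD of the change across the 14 core genes was 1.93 here, against 1.30 across all genes tested. One step later, from 2-cell to 8-cell embryo, it was 0.59 against 1.32. For the 18 cap genes it was 1.32 and 0.97. Genes are not replicates, and the 2 steps share the 2-cell arrays, so these values are a description. The 1.93 includes Psmb5 and Psmb1, whose 1-cell signals were under the filter level.

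Psmb5, with the probe set that carried the change, and Psmb1 rose most in the core, by 3.84 ± 0.19 (adjusted p = 4.18e-13) and 2.79 ± 0.29 (adjusted p = 5.66e-08). Psmd14 rose by 3.93 ± 0.24 (adjusted p = 1.85e-11) and was then near its oocyte signal, at 0.29 ± 0.23 (adjusted p = 0.315) between 2-cell embryo and oocyte. The 1-cell signals of these Psmb5 and Psmb1 probe sets, and most of those of Psmd14, were under the filter level. The sizes of these rises are therefore not exact. By probe set, the lid had 6 rising, 0 falling and 4 not called. The ATPases had 1 rising, 2 falling and 4 not called. The lid rises include more than 1 probe set of Psmd11. The brightest Psmd11 probe set was not called, with mean signals of 748 in 1-cell and 610 in 2-cell embryos. Also included is Psmd13, whose 1-cell signals of 2.4, 17.1 and 21.6 were under the filter level. Psmc3 gave 3 of the 7 ATPase probe sets. These counts therefore rest on few genes, and no contrast between lid and ATPases is drawn from them.

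Psma7, an alpha-ring subunit, was not called at the first step and fell at this one. Its signal was 1956, 1968, 1656 and 2003 in oocytes, 1591, 1601 and 1586 in 1-cell embryos, 227, 133 and 213 in 2-cell embryos, 1583, 1417, 1206 and 816 in 8-cell embryos, and 1921, 1741 and 1364 in blastocysts. The 2-cell values were below all others, and the 1-cell values lay just below those of oocytes. From oocyte to 1-cell embryo it changed by -0.25 ± 0.20 (adjusted p = 0.381), which is not a call, and then by -3.02 ± 0.22 (adjusted p = 1.64e-10).

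Psma2, also of the alpha ring, followed the same course, with 2687, 3357, 2983 and 3497 in oocytes, 3148, 3629.7 and 3439 in 1-cell embryos, 849, 686 and 1034 in 2-cell embryos, 2359.6, 2324, 2938 and 2131 in 8-cell embryos, and 2816, 3230.4 and 2714 in blastocysts. Here too the 2-cell embryos stood below every other array, and the oocytes and 1-cell embryos overlapped. The change was 0.13 ± 0.16 (adjusted p = 0.584) at the first step and -1.99 ± 0.17 (adjusted p = 2.18e-09) at the second. Psmb3 and Psmb2, both of the beta ring, were likewise not called at the first step and changed by -1.33 ± 0.22 (adjusted p = 2.80e-05) and -1.07 ± 0.22 (adjusted p = 0.000392) at the second.

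The cap chaperones Psmd9 and Psmd10, which help to assemble the ATPase ring and are not part of the finished cap, fell most in the cap at this step. Psmd9 was at 396, 229, 522 and 340.4 in oocytes, 631, 469 and 667 in 1-cell embryos, 162, 136 and 150.2 in 2-cell embryos, 166, 182, 161 and 161 in 8-cell embryos, and 289, 184 and 275 in blastocysts. Every 2-cell value was below every oocyte and 1-cell value. It changed by -1.89 ± 0.23 (adjusted p = 6.26e-07). Psmd10 was at 164, 306, 176 and 258 in oocytes, 116, 110.1 and 158 in 1-cell embryos, 45.8, 28.7 and 45.1 in 2-cell embryos, 41.9, 62.6, 67.2 and 42.4 in 8-cell embryos, and 72.1, 88.0 and 98.1 in blastocysts. It did not return to its oocyte signal at any later stage, and the 2-cell and 8-cell values overlapped. The fall was -1.45 ± 0.26 (adjusted p = 6.41e-05).

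From 2-cell to 8-cell embryo most core subunits rose. In the core 15 probe sets rose, 0 fell and 1 was not called with the deposited scaling, and 9 rose, 1 fell and 6 were not called with spike scaling. The cap had 15 rising, 2 falling and 5 not called, and the immune and activator class 1 rising, 2 falling and 1 not called. Of all tested, 54.1% were called, 25.8% higher and 28.3% lower. The median change was 1.33 over all core, 1.29 over all cap and -0.03 over all immune and activator probe sets, and -0.06 over all tested. For all members the split was 31 higher and 6 lower, and 21 and 8 with spike scaling, which moved the median of all probe sets to -0.59. With that scaling 840 of all 8067 tested were higher and 3239 lower. Without the second 8-cell array, the one with high Ovgp1, the counts were 15 rising and 0 falling in the core and 15 and 2 in the cap.

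All 7 alpha-ring and all 7 ATPase probe sets tested rose with the deposited scaling, and so did 7 of 10 in the lid. Psmc3 gave 3 of these 7 ATPase probe sets, and Psmc4 was too dim to be tested. With spike scaling the alpha subunits Psma3 (0.53) and Psma4 (0.41) were not called. Psma5, an alpha subunit, rose most in the core. It was at 935, 942, 935 and 880.1 in oocytes, 246, 336 and 329.9 in 1-cell embryos, 140.2, 142 and 265 in 2-cell embryos, 1082, 1241, 1425 and 929 in 8-cell embryos, and 2240.2, 2097 and 2331 in blastocysts. All 8-cell values were above all 1-cell and 2-cell values, which overlapped with each other, and all blastocyst values were higher still. The rise was 2.65 ± 0.19 (adjusted p = 1.66e-10), next to 2.64 ± 0.20 (adjusted p = 4.10e-10) for Psma7.

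In the cap, Psmc3 rose most at this step, by 2.68 ± 0.23 (adjusted p = 2.31e-09) with the first of its probe sets, ahead of the second (2.07 ± 0.24) and of Psmd7, a lid subunit. Psmd7 was at 200.3, 213, 190.4 and 202 in oocytes, 141, 112 and 105 in 1-cell embryos, 218, 274 and 491 in 2-cell embryos, 998, 1057, 1750 and 1606 in 8-cell embryos, and 879.8, 612 and 1354 in blastocysts. The 8-cell and blastocyst values overlapped, and both stages lay above all earlier ones. It changed by 2.05 ± 0.26 (adjusted p = 8.53e-07).

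The cap members that fell were Psmd5, another assembly chaperone of the base, and 1 Psmd11 probe set. Psmd5 was at 1032, 1217, 934 and 509.7 in oocytes, 277, 311 and 303 in 1-cell embryos, 620.2, 652 and 712 in 2-cell embryos, 287, 231, 259 and 257 in 8-cell embryos, and 458, 448 and 406 in blastocysts. It alternated between stages, with 1-cell and 8-cell embryos low. The changes over the 4 steps were -1.53 ± 0.20, 1.13 ± 0.22, -1.32 ± 0.20 and 0.74 ± 0.20, all called. Of the 3 chaperones in this group, 0 rose and 1 fell from 2-cell to 8-cell embryo.

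From 8-cell embryo to blastocyst, where the first lineages separate, fewer subunits changed. In the core 6 rose, 0 fell and 10 were not called, and in the cap 8 rose, 0 fell and 14 were not called. The immune and activator class had 1 rising, 1 falling and 2 not called. Of all tested, 42.5% were called, 21.8% higher and 20.7% lower, so the share of core and cap members called, 14 of 38, was not above that of all probe sets. Without oocyte array 4, 8-cell array 1 or blastocyst array 1 or 3 the 8 cap rises became 5, and the probe sets that lost a call there were among those of Psmd1, Psmd10, Psmd12 and Psmd13. Psma6 (-0.48 ± 0.19) became a called fall without any 1 of the 2-cell arrays. The medians were 0.26, 0.17 and 0.06 for the 3 classes and -0.09 for all tested. For all members the split was 15 higher and 2 lower, and 39 and 0 with spike scaling, which moved the median of all probe sets to 0.90 and gave 15 rises in the core and 20 in the cap. Among all 8067 tested, 4641 rose and 193 fell with spike scaling.

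The largest core rise was that of the second Psmb1 probe set, at 530.5, 669.7, 617 and 461 in oocytes, 144, 154 and 231 in 1-cell embryos, 316, 259.7 and 275 in 2-cell embryos, 576, 594, 564 and 515 in 8-cell embryos, and 1356, 1297 and 1245 in blastocysts. All 3 blastocyst values were above all others, and oocytes and 8-cell embryos overlapped. It rose by 1.19 ± 0.17 (adjusted p = 5.87e-06), while the first Psmb1 probe set was not called at 0.56 ± 0.27 (adjusted p = 0.108). Psma5 rose by 0.94 ± 0.19 (adjusted p = 0.000441).

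The 3 probe sets of Psmc3 gave the largest rises in the cap. The changes were 1.35 ± 0.20 (adjusted p = 1.28e-05), 1.04 ± 0.23 (adjusted p = 0.000935) and 0.96 ± 0.24 (adjusted p = 0.00279). The one with the largest rise was at 168, 176, 165 and 208 in oocytes, 73.4, 46.5 and 74.0 in 1-cell embryos, 53.6, 44.9 and 62.0 in 2-cell embryos, 171, 206, 160.1 and 206 in 8-cell embryos, and 466, 385 and 652 in blastocysts. Its blastocyst values were above those of all other stages, and its 8-cell and oocyte values overlapped.

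**Figure D2:**
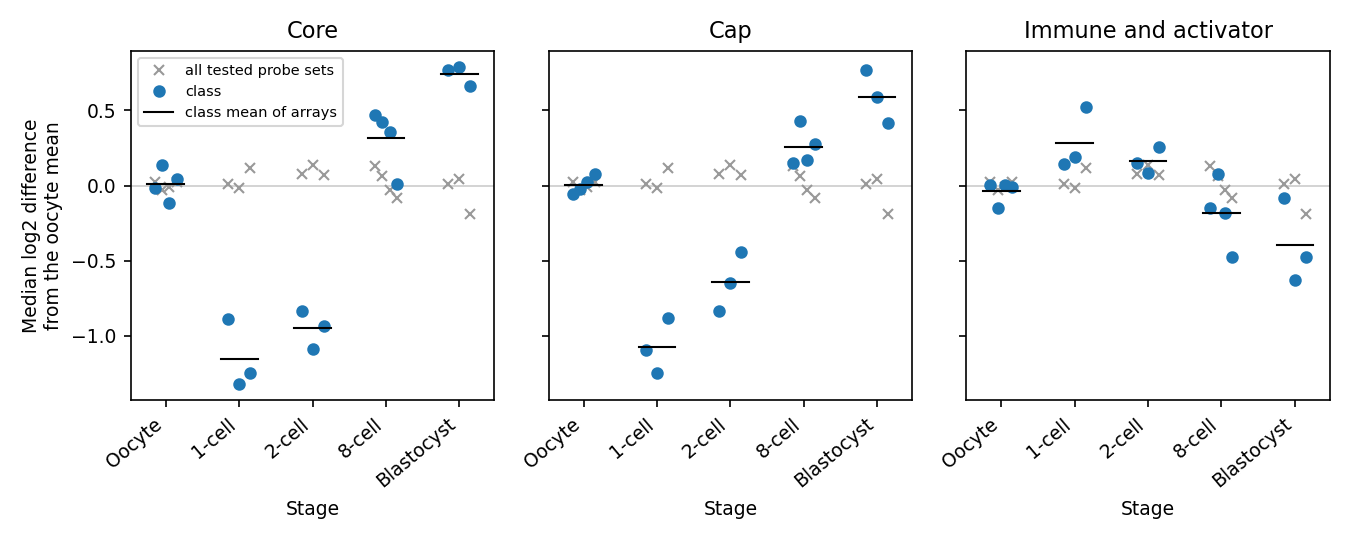
Each point is 1 array: the median over all probe sets of a class (19 core, 25 cap, 7 immune and activator) of the log2(signal + 11) difference from the oocyte mean, by stage, with crosses for all 8067 tested probe sets and a line at the mean of the arrays. The core arrays lay at -1.32 to -0.83 in 1-cell and 2-cell embryos and at 0.66 to 0.79 in blastocysts, those of the immune and activator class stayed between -0.63 and 0.52, and the crosses stayed between -0.19 and 0.14.

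Set against the oocyte, the 2-cell embryo was still low. In the core 13 probe sets were lower, 1 higher and 2 not called, and in the cap 14 were lower, 5 higher and 3 not called. Of all tested, 49.1% were called, 25.8% higher and 23.2% lower. The alpha ring had 6 of 7 lower, the ATPases 7 of 7, and the lid 5 higher, 3 lower and 2 not called. Psmc3 gave 3 of the 7 ATPase probe sets, and no contrast between lid and ATPases is drawn from these counts. For all members the split was 7 higher and 28 lower, and 0 and 32 with spike scaling, which moved the median of all probe sets to -0.70. With that scaling 776 of all 8067 tested were higher and 3747 lower. The 5 lid probe sets that were higher than in the oocyte were the 3 of Psmd11, Psmd3 and Psmd13, the last against oocyte signals mostly under the filter level. Without oocyte array 2 or 2-cell array 2 these 5 became 3. Psmd3 (0.67 ± 0.23) lost its call without oocyte array 2 (0.48) or 2-cell array 2 (0.65) or 3 (0.41), and 1 of the Psmd11 probe sets without oocyte array 2 (0.82) or 2-cell array 2 (0.83).

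In blastocysts most core and cap subunits were higher than in oocytes. In the core 11 were higher, 0 lower and 5 not called, and in the cap 13 were higher, 4 lower and 5 not called, next to 1 higher and 3 lower in the immune and activator class. Of all tested, 64.3% were called, 32.2% higher and 32.1% lower. The medians were 0.70, 0.58 and -0.57 for the 3 classes, and -0.07 for all tested. For all members the split was 25 higher and 9 lower, and 15 and 10 with spike scaling, which moved the median of all probe sets to -0.39. Over all 8067 tested that scaling gave 1861 higher and 2996 lower. The core then had 7 higher and 1 lower, and the cap 7 and 4. With the deposited scaling, the 11 core rises became 9 without oocyte array 1 or 3 or blastocyst array 1 or 2. Psmb2 and the first Psmb1 probe set lost their calls there, and Psmb2 also without several other arrays. The 4 lower cap probe sets became 2 without oocyte array 1, 3 or 4 or blastocyst array 2, where Psmd9 and Psmd4 (-0.37 ± 0.16) lost their calls. The chaperones Psmd5, Psmd9 and Psmd10 all fell from oocyte to blastocyst, by 0.99 ± 0.20, 0.52 ± 0.22 and 1.25 ± 0.24 on the log2 scale, although Psmd9 lost its call without oocyte array 1, 3 or 4 (-0.48, -0.35 and -0.55) or blastocyst array 2 (-0.33).

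Psmd13, a lid subunit, was bright in the later stages alone. It was at 46.8, 22.2, 22.0 and 29.9 in oocytes, 2.4, 17.1 and 21.6 in 1-cell embryos, 53.6, 91.2 and 117 in 2-cell embryos, 316, 253, 305 and 277 in 8-cell embryos, and 509, 523 and 413 in blastocysts. From the 2-cell stage on, no array overlapped with an earlier stage. Since 3 of the 4 oocyte values were under the filter level, no size is given for its difference between blastocyst and oocyte. It passed the filter mainly through its later arrays. Its calls between oocyte, 1-cell and 2-cell embryo and between blastocyst and oocyte are included in the class counts but are not support for a change. Psma7, Psma2 and Psmb7 were back near their oocyte signal, with differences of -0.19 ± 0.20, -0.10 ± 0.16 and -0.02 ± 0.20, none of them called.

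The 3 constitutive catalytic subunits differed in their course. Psmb5, the chymotrypsin-like subunit, had with one probe set 274, 250.3, 222 and 250.1 in oocytes, 12.4, 25.1 and 29.0 in 1-cell embryos, 402, 452 and 510.4 in 2-cell embryos, 914, 940.4, 805 and 911 in 8-cell embryos, and 1547, 1247 and 1672 in blastocysts. No stages overlapped, the 1-cell values were under the filter level, and each later stage was above the one before. The changes over the 4 steps were -3.00 ± 0.18 (adjusted p = 2.92e-11), 3.84 ± 0.19 (adjusted p = 4.18e-13), 0.96 ± 0.18 (adjusted p = 8.24e-05) and 0.72 ± 0.18 (adjusted p = 0.00214).

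Psmb6, the caspase-like subunit, was at 722, 711, 548 and 620.1 in oocytes, 192, 252 and 208 in 1-cell embryos, 121, 131 and 181 in 2-cell embryos, 599.6, 633, 582 and 424 in 8-cell embryos, and 874, 691 and 483 in blastocysts. The low stages were the 1-cell and 2-cell embryos, and oocytes, 8-cell embryos and blastocysts overlapped. It fell by 1.54 ± 0.20 and rose by 1.88 ± 0.20 (adjusted p = 5.84e-08) between 2-cell and 8-cell embryo. The change from 1-cell to 2-cell embryo, -0.56 ± 0.21 (adjusted p = 0.0341), lost its call without 1-cell array 2 (-0.46) or 3 (-0.59) or 2-cell array 1 (-0.46) or 2 (-0.51).

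Psmb7, the trypsin-like subunit, was at 605, 850, 672 and 699.7 in oocytes, 75.5, 108 and 138 in 1-cell embryos, 230.2, 249.7 and 257 in 2-cell embryos, 683, 749.9, 536 and 579.8 in 8-cell embryos, and 841, 498 and 781 in blastocysts. The 1-cell values were the lowest and the 2-cell values came next, with no overlap, and the other 3 stages overlapped. It changed by -2.63 ± 0.20 (adjusted p = 1.29e-09) and then by 1.15 ± 0.21 (adjusted p = 0.000114) and 1.33 ± 0.20 (adjusted p = 8.02e-06), and not by a called amount from 8-cell embryo to blastocyst (0.12 ± 0.20). Thus Psmb7 and this Psmb5 probe set had their lowest mean in 1-cell embryos and Psmb6 in 2-cell embryos. The other Psmb5 probe set, described below, had its lowest mean in blastocysts.

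Of their immune replacements, Psmb8 and Psmb9 did not pass the filter. Psmb8, the replacement for Psmb5, was at 14.1, 7.8, 9.9 and 8.3 in oocytes, 6.5, 10.8 and 20.4 in 1-cell embryos, 15.2, 19.9 and 7.2 in 2-cell embryos, 2.9, 42.4, 7.4 and 20.3 in 8-cell embryos, and 9.4, 8.7 and 6.0 in blastocysts, and 1 array of 17 exceeded 41.1. Psmb9, the replacement for Psmb6, was at 4.6, 5.7, 5.4 and 6.6 in oocytes, 7.3, 4.7 and 8.2 in 1-cell embryos, 7.4, 5.3 and 8.8 in 2-cell embryos, 7.0, 6.5, 6.0 and 7.5 in 8-cell embryos, and 39.1, 51.0 and 54.6 in blastocysts. All 3 blastocysts were above all 14 other arrays, which lay between 4.6 and 8.8, but only 2 values were above 41.1, so it was not tested in the main fit.

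Psmb10, the replacement for Psmb7, was at 70.7, 86.4, 78.5 and 75.8 in oocytes, 95.6, 90.1 and 91.4 in 1-cell embryos, 58.1, 94.8 and 97.2 in 2-cell embryos, 148, 131, 131 and 52.7 in 8-cell embryos, and 41.4, 37.2 and 30.6 in blastocysts. The blastocysts were the lowest, and oocytes, 2-cell and 8-cell embryos overlapped, with 8-cell array 4 standing below the other 8-cell arrays. It changed by 0.37 ± 0.26 (adjusted p = 0.247) from 2-cell to 8-cell embryo, which without that array became a called change of 0.67, adjusted p = 0.0103. From 8-cell embryo to blastocyst it changed by -1.34 ± 0.26 (adjusted p = 0.000262), and against the oocyte the difference was -0.91 ± 0.26 (adjusted p = 0.00433). Blastocysts were thus the stage with the highest Psmb9 and the lowest Psmb10 signal.

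**Figure D3:**
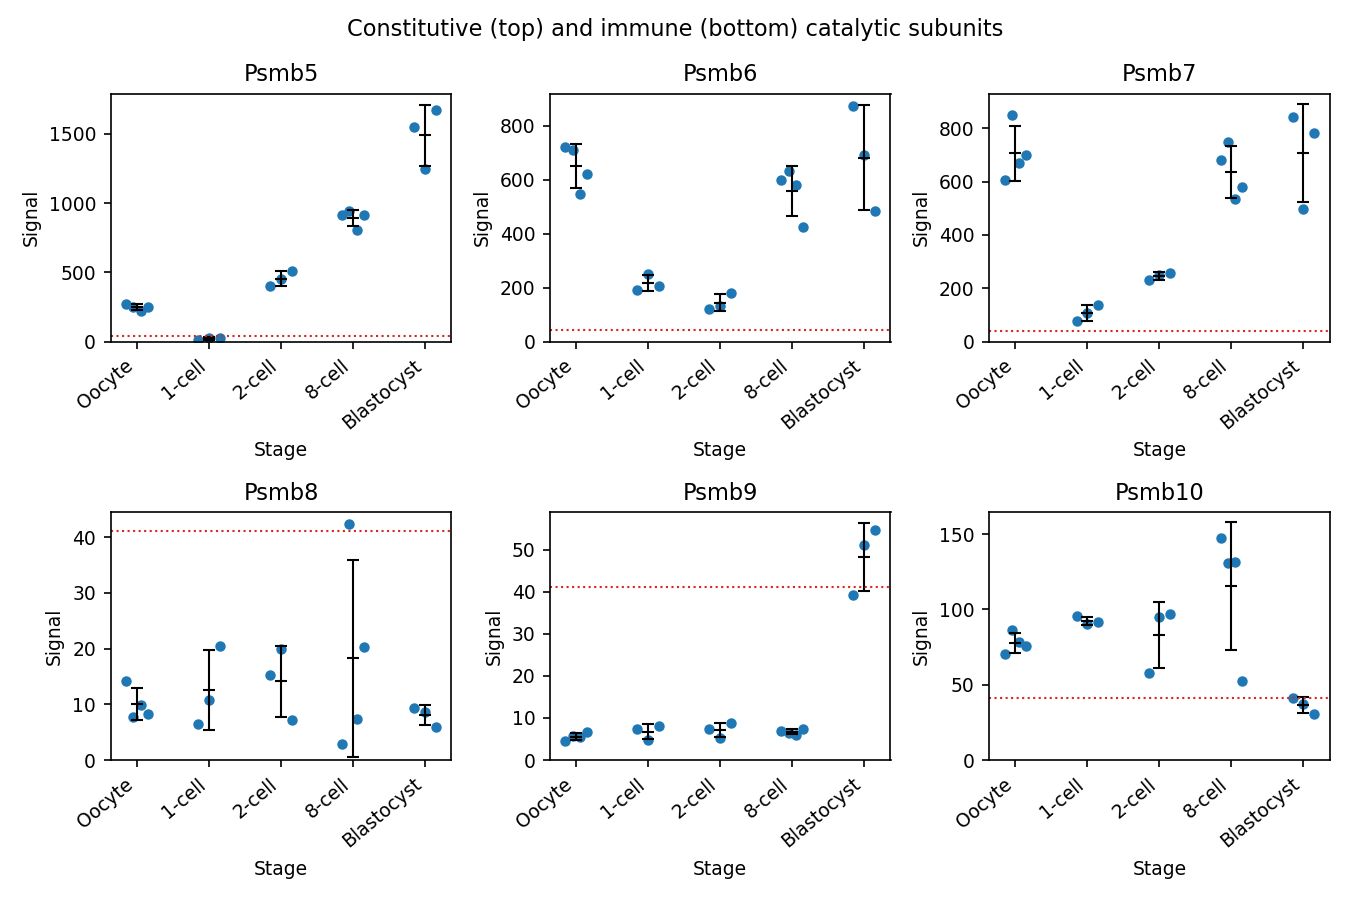
Signal of every array (points, linear axis from 0) by stage, with the stage mean and SD, for the constitutive catalytic subunits Psmb5 (the probe set that changed), Psmb6 and Psmb7 in the upper row and the immune ones Psmb8, Psmb9 and Psmb10 in the lower row. The dotted line is the filter level of 41.1, and axes differ between panels: Psmb8 reached it on 1 array and Psmb9 in 2 blastocysts, while Psmb10 was near or above it on most arrays.

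Genes that accompany the immunoproteasome were taken from a list of antigen presentation and interferon genes, of which 17 were on the array and 10 passed the filter. From 8-cell embryo to blastocyst 3 rose, 1 fell and 6 were not called, against 42.5% called of all probe sets. H2-D1, a class I major histocompatibility gene, rose by 1.43 ± 0.29 at this step. Irf9, an interferon regulatory factor, changed by -0.66 ± 0.24 after a rise of 2.12 ± 0.26 from 1-cell to 2-cell embryo. Irf1, an inducer of the immune subunits in other cells, changed by -4.33 ± 0.21 from oocyte to blastocyst, and Ifitm3 by -2.38 ± 0.41. Over that span 3 rose, 5 fell and 2 were not called, against 64.3% called of all probe sets, 32.2% higher and 32.1% lower.

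The activators also went their own ways. Psme1 encodes the alpha subunit of the interferon-induced PA28 activator. The probe set that passed the filter was at 18.8, 5.4, 4.6 and 25.6 in oocytes, 3.0, 7.0 and 13.2 in 1-cell embryos, 14.2, 3.5 and 4.7 in 2-cell embryos, 118, 95.4, 126 and 149 in 8-cell embryos, and 144, 194 and 268 in blastocysts. All 10 arrays before the 8-cell stage were under the filter level and all 7 later arrays above it. It passed the filter through those later arrays, so no size or test is given for the earlier steps, and its call from 2-cell to 8-cell embryo, included in the class counts, is not support for a rise. From 8-cell embryo to blastocyst it changed by 0.65 ± 0.32 (adjusted p = 0.107), and the values overlapped. A second Psme1 probe set was dim, with 15.3, 7.5, 13.5 and 18.7 in oocytes, 9.8, 19.4 and 24.0 in 1-cell embryos, 19.2, 14.8 and 27.8 in 2-cell embryos, 11, 6.4, 5.5 and 1.7 in 8-cell embryos, and 12.0, 3.0 and 0.9 in blastocysts, and its later arrays were not above the earlier ones.

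Psme3 encodes the nuclear activator PA28 gamma. Its signal was 219, 168, 319 and 206 in oocytes, 373, 435 and 407 in 1-cell embryos, 199, 177 and 165 in 2-cell embryos, 78.8, 79.2, 75.8 and 64.7 in 8-cell embryos, and 73.9, 82.7 and 78.5 in blastocysts. The 1-cell values were above all others, and 8-cell embryos and blastocysts lay below all earlier stages. The changes were 0.83 ± 0.19 (adjusted p = 0.00109), -1.12 ± 0.20 (adjusted p = 6.41e-05), -1.16 ± 0.19 (adjusted p = 1.62e-05) and 0.06 ± 0.19 (adjusted p = 0.809).

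Psme4 encodes PA200, an activator that also acts on histones. It was at 670, 641, 699 and 664 in oocytes, 1613, 1484 and 1038 in 1-cell embryos, 1629, 1734 and 1514 in 2-cell embryos, 172, 244, 189 and 202 in 8-cell embryos, and 437, 428 and 478 in blastocysts. The 1-cell and 2-cell embryos were high, the 8-cell embryos lowest, and the blastocysts lay between 8-cell embryos and oocytes with no overlap. It changed by 1.01 ± 0.16 (adjusted p = 2.50e-05), 0.26 ± 0.17 (adjusted p = 0.221), -2.95 ± 0.16 (adjusted p = 1.23e-12) and 1.12 ± 0.16 (adjusted p = 6.20e-06). With the deposited scaling, Psme3 and Psme4 thus rose at the step at which 29 of 38 tested core and cap probe sets fell, against 19.8% of all. They fell at the step at which 30 of the 38 rose, against 25.8% of all. Some genes count with several probe sets, and the 29 include Psmd13, whose call is not support for a fall. With spike scaling the first-step changes of Psme3 and Psme4 were -0.26 and -0.12.

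**Figure D4:**
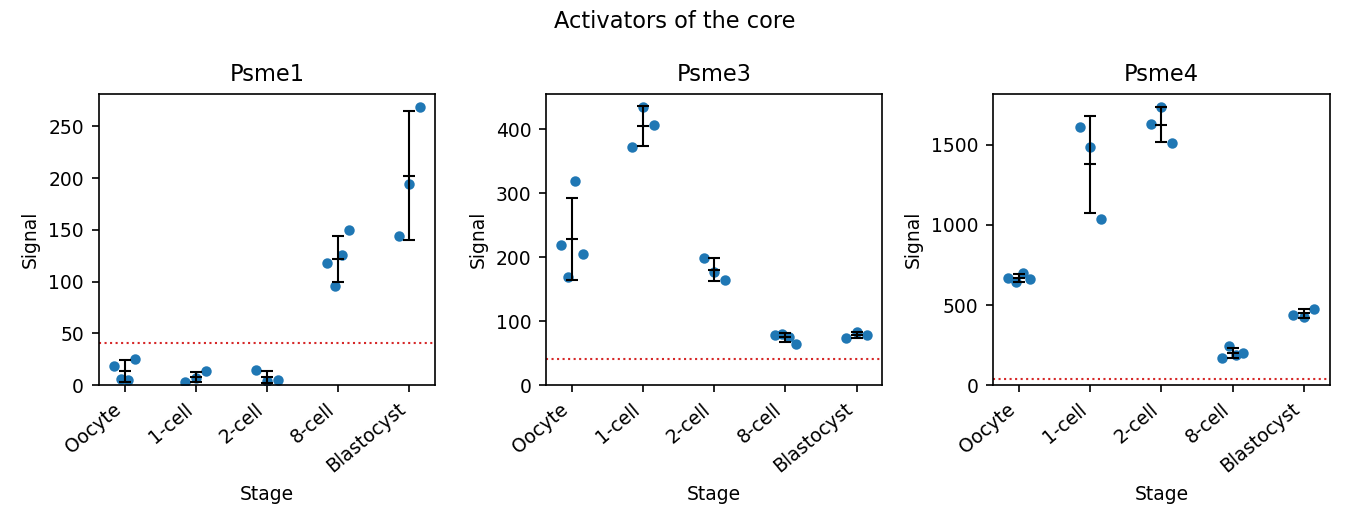
Signal of every array (points, linear axis from 0) by stage, with the stage mean and SD, for the 3 activator genes that passed the filter, and a dotted line at the filter level of 41.1. Psme1 was above the line from the 8-cell stage on, Psme3 was highest in 1-cell embryos and Psme4 highest in 1-cell and 2-cell embryos and lowest in 8-cell embryos.

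Of the genes with several probe sets, Psmb5 and Psmd11 gave results that depend on the probe set, and Psmb1 did so in the last step. The second Psmb5 probe set was at 127, 45.4, 87.7 and 107 in oocytes, 76.3, 54.0 and 131 in 1-cell embryos, 143, 132 and 124 in 2-cell embryos, 128, 67.3, 74.4 and 83.8 in 8-cell embryos, and 81.1, 39.8 and 39.9 in blastocysts. All stages overlapped, apart from the 2-cell and blastocyst values, and it was called in none of the 6 comparisons, with -0.07 ± 0.31 (adjusted p = 0.896) at the first step and 0.63 ± 0.33 (adjusted p = 0.129) at the second. Leaving out 1-cell array 3 gave it a call of 0.93 at the second step, leaving out blastocyst array 1 gave calls of -0.93 from 8-cell embryo to blastocyst and -0.94 from oocyte to blastocyst, and leaving out oocyte array 2 gave -0.92 in the last. The first Psmb5 probe set carries the mark for probes shared with other transcripts. Which of them reports Psmb5 was not tested, so the Psmb5 values above hold for that probe set.

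Psmd11 is a lid subunit measured by 3 probe sets. The first was at 381, 322, 383 and 344 in oocytes, 825, 782 and 638 in 1-cell embryos, 513, 607 and 709.7 in 2-cell embryos, 848, 819, 899 and 995 in 8-cell embryos, and 828, 682 and 777 in blastocysts, with 1-cell values above all oocyte values. The second was at 543, 297, 588 and 477 in oocytes, 277, 177 and 236 in 1-cell embryos, 1347, 1403 and 1137 in 2-cell embryos, 602, 704, 582 and 523 in 8-cell embryos, and 1039, 862 and 500 in blastocysts, with 1-cell values below all oocyte values and 2-cell embryos above all other stages. The third, whose name marks relaxed rules for its probes, was at 70.3, 34.7, 43.7 and 93.1 in oocytes, 21.8, 20.8 and 35.4 in 1-cell embryos, 140.2, 166 and 84.9 in 2-cell embryos, 129.6, 114, 84.0 and 63.0 in 8-cell embryos, and 76.7, 67.6 and 28.8 in blastocysts. Its mean was lowest in 1-cell and highest in 2-cell embryos, but both stages overlapped with others.

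The first and second were called in opposite directions from oocyte to 1-cell embryo, at 1.04 ± 0.15 (adjusted p = 9.56e-06) and -0.99 ± 0.23 (adjusted p = 0.00182), and again from 2-cell to 8-cell embryo, at 0.55 ± 0.15 (adjusted p = 0.00372) and -1.09 ± 0.23 (adjusted p = 0.000445). The third sided with the second at the first step (-0.90 ± 0.33 (adjusted p = 0.0349), a call lost without oocyte array 1 or 4 or 1-cell array 1 or 2, at -0.81, -0.69, -0.82 and -0.80) and at the second, with 1.91 ± 0.35 (adjusted p = 9.11e-05) next to 2.46 ± 0.25 (adjusted p = 3.87e-08). Psmd11 was therefore counted with all its probe sets and given no direction of its own.

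**Figure D5:**
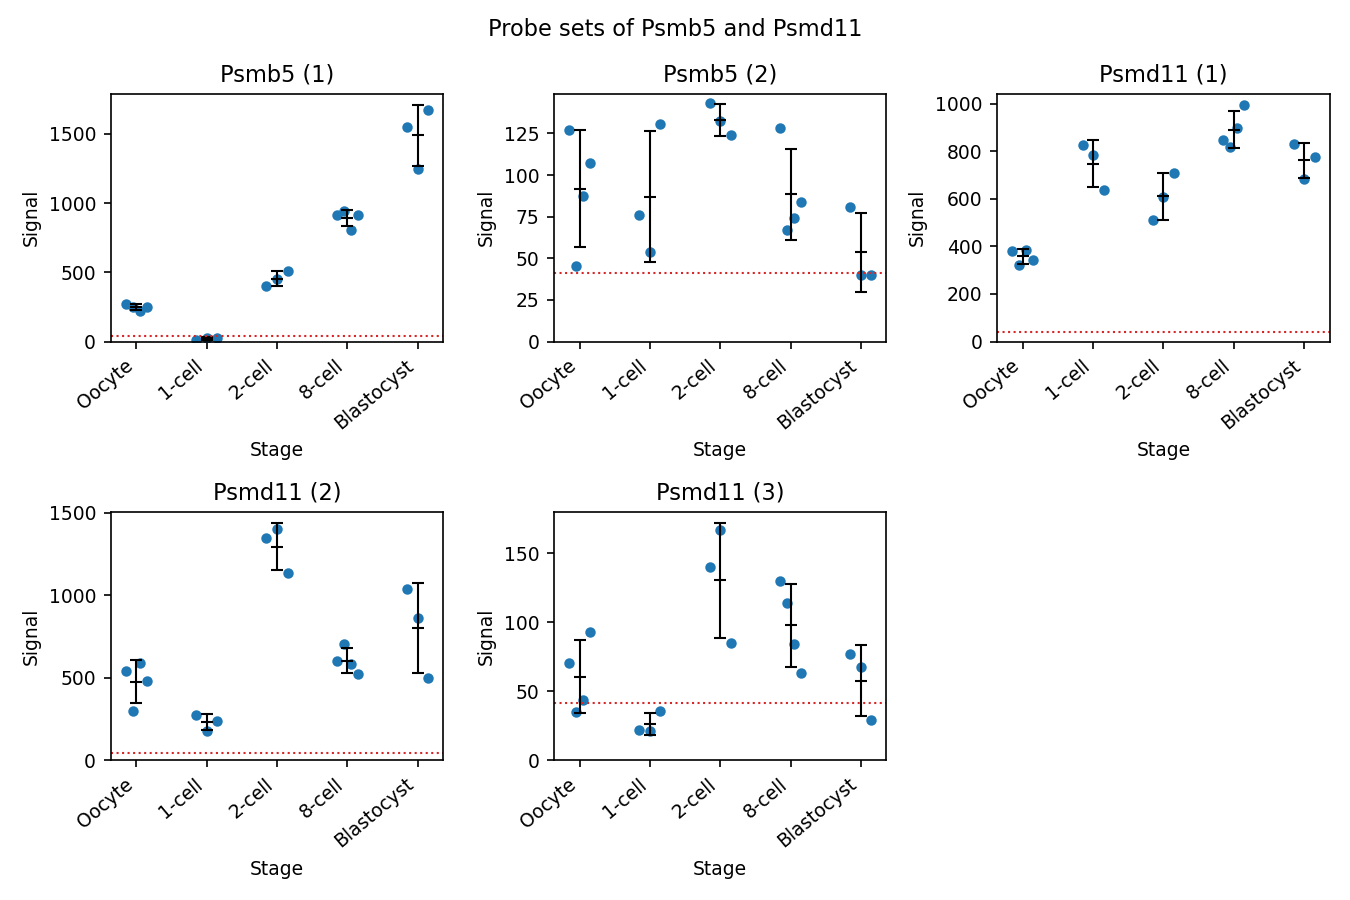
Signal of every array (points, linear axis from 0) by stage, with the stage mean and SD, for the 2 probe sets of Psmb5 and the 3 of Psmd11, with a dotted line at the filter level of 41.1 and axes that differ between panels. The first Psmb5 panel drops at the 1-cell stage and climbs to the blastocyst and the second does not, and the first Psmd11 panel rises where the second falls at the 1-cell stage.

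The members with no large change are part of the account. Psmd4, the ubiquitin receptor of the base, was at 2602, 2657, 2868 and 2901 in oocytes, 2423, 2921 and 2662 in 1-cell embryos, 1524, 1766 and 2155 in 2-cell embryos, 2492, 1836, 2136 and 2385 in 8-cell embryos, and 1859, 2023 and 2582 in blastocysts. Neighbouring stages overlapped except for the fall from 1-cell to 2-cell embryo, -0.56 ± 0.17 (adjusted p = 0.00792). Psmc4 and Psmd2, a base ATPase and the largest scaffold beside Psmd1, were dim on this array, with signals of 9.8 to 41.0 and 4.4 to 38.1, so their course was not measurable here. The 2 genes that match by name alone went with most of the core at the first step and against it at the third. Psmc3ip changed by -3.45 ± 0.26, 4.01 ± 0.28, -1.21 ± 0.26 and -1.48 ± 0.26 over the 4 steps, all called. Its 1-cell signals were 2.4, 8.0 and 4.0, far under the filter level, so the first 2 sizes are not exact. Psme3ip1 fell by 1.60 ± 0.18 at the first step and had -0.62 ± 0.18 (adjusted p = 0.00485) at the third.

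The factors that assemble the proteasome or work beside it were listed as 15 genes, and all were tested. At the first step 3 rose, 4 fell and 8 were not called, and at the second 2 rose, 5 fell and 8 were not called. From 2-cell to 8-cell embryo 11 rose, 3 fell and 1 was not called, and from there to the blastocyst 4 rose, 3 fell and 8 were not called. Of all probe sets 37.1%, 47.2%, 54.1% and 42.5% were called at these steps, so 7 of 15 was near the background at the first, second and last. Psmg2, a chaperone of the alpha ring, was at 2.05 ± 0.60 in oocytes, 7.53 ± 7.62 in 2-cell embryos, 149.8 ± 19.7 in 8-cell embryos and 270.5 ± 43.0 in blastocysts (mean signal ± SD). The early stages were far under the filter level, and no size is given for the difference.

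Sem1, the smallest lid protein, which has no Psm symbol on this array, changed by -2.08 ± 0.16, 1.18 ± 0.17 and 1.68 ± 0.16 over the first 3 steps, all called. Usp14, a deubiquitinating enzyme that docks on the cap, changed by -1.01 ± 0.18 at the first step and by 2.13 ± 0.18 at the third. Vcp, the segregase that pulls ubiquitinated proteins out of complexes, was not called at the first step (-0.21 ± 0.14) and rose by 1.59 ± 0.14 at the third.

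Ubiquitin genes, shuttle factors and regulators of proteasome genes were a list of 7 measured genes. From oocyte to 1-cell embryo 2 rose, 0 fell and 5 were not called, and from 2-cell to 8-cell embryo 1 rose, 4 fell and 2 were not called, against 37.1% and 54.1% called of all probe sets. Ubqln1, which carries ubiquitinated proteins to the cap, changed by 1.13 ± 0.19, -1.13 ± 0.20 and -1.69 ± 0.19 over the first 3 steps, each called, and Ubqln2 by -1.50 ± 0.30 at the second. Sqstm1, an autophagy receptor, rose by 3.38 ± 0.26 from oocyte to blastocyst. Nfe2l2, a transcription factor that binds antioxidant response elements, was not called over the first 2 steps, changed by -0.52 ± 0.19 at the third and rose by 1.31 ± 0.19 from 8-cell embryo to blastocyst.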

How the data were processed

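Total RNA of mouse oocytes and embryos was amplified and hybridised to 17 arrays, per the labels. The authors deposited 1 intensity per probe set and array on a linear scale. Their software is not given in the sources used here. The mean of the middle 96% of values was near 150 on every array, so no further scaling was applied. Gene symbols came from the platform annotation, brought up to date by Entrez ID. Probe sets with a signal above 41.1 on at least 3 arrays were kept, without 66 control probe sets, and log2(signal + 11) was fitted in R 4.3.3 with limma 3.58.1 (lmFit, eBayes with an intensity trend, 1 mean per stage, 12 residual degrees of freedom). Tests were two-sided, with p-values adjusted by Benjamini and Hochberg within each of 6 comparisons and the F test, and the fit was tested on simulated data. Related lists used 1 probe set per gene, that with the highest mean signal.

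The members, lists and tests were chosen with earlier results of these data known. Genes named with values were, per class and consecutive step, the 2 largest rises and falls without overlap between arrays, the immune, activator and catalytic subunits, members whose probe sets disagreed, and up to 4 genes of each list; Psmd4, Psmd5, Psmd13, Psma2 and some others were named in addition after their values were seen. The alternatives were quantile normalization, median centring, scaling to the spikes, offsets of 1 and 41, no filter and a filter at 152.5, no trend, weights per array, a block for the replicate number, a fit of only the stages compared, 1 probe set per gene, probe sets without a mark for shared probes, and each array left out.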

Additional observations from a re-analysis of the deposited data

Results flagged for a closer look

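In 3 of the 88 groups of 4 oocyte or 8-cell arrays examined, 1 per tested member and stage, 1 array stood apart from the other 3. Chance puts about 1 in 20 groups past this limit. All 3 were oocyte groups. Psma5 was at 880.1 on oocyte array 4 and at 935.1 to 942.2 on the others. Psma7 was at 1656.3 on oocyte array 3 and at 1956.5 to 2002.7 on the others. Psmd6, a lid subunit, was at 1054.6 on oocyte array 2 and at 857.7 to 878.4 on the others. No array was involved in more than 1 of them.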

How the results depend on the processing

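Of 264 changes of single members over the 6 comparisons, 204 kept their direction and side of the threshold in every setting but the scaling to the spikes, and 0 reversed in those settings. With spike scaling 21 of the changes reversed. From oocyte to 1-cell embryo these were Psma2 (-1.01), Psmb2 (-0.99), Psmd11 (-0.075), Psmd9 (-0.42), Psmb10 (-0.79), Psme3 (-0.26) and Psme4 (-0.12). From oocyte to 2-cell embryo they were Psma3 (-0.85), Psmb5 (-0.042), Psmd11 (-0.14), Psmd3 (-0.20) and Psmb10 (-0.76), and from 2-cell to 8-cell embryo Psmd1 (-0.15) and Psmd11 (-0.091). From 8-cell embryo to blastocyst they were Psma3 (1.10), Psma6 (0.71), Psmb4 (1.19), Psmd11 (0.95), Psmd3 (1.03), Psmd4 (1.14) and Psmd8 (0.94). The number of members called moved past 1.5 times with spike scaling alone: 20 against 31 from 1-cell to 2-cell embryo and 39 against 17 from 8-cell embryo to blastocyst, a scaling that shifts all probe sets together. With 1 array left out it was 32 to 36, 26 to 31, 36 to 39 and 14 to 18 over the 4 steps, 31 to 36 for 2-cell embryo against oocyte, 30 to 34 for blastocyst against oocyte and 43 to 44 for any stage. Of 190 calls, 30 were lost without at least 1 array, none with a log2 change above 1.01 in size. The replicate numbers do not pair the arrays: 2 of 31 same-numbered pairs correlated above 0.1 (range -0.08 to 0.13), and 6 of 17 arrays correlated best with their own number. With the number as a block the counts were 35, 30, 37, 16, 36, 31 and 44, with 8 calls lost and 3 gained. Signal over background limits Psmc4, Psmd2, Psmb8 and Psmb9, which stayed under the filter.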
